A study of Mus musculus with 16 samples.

Results

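Claudins are the membrane proteins that make up the strands of tight junctions, the seals between neighbouring epithelial or endothelial cells. The RNA of 10 genes of the family, Cldn1, Cldn3, Cldn4, Cldn5, Cldn6, Cldn7, Cldn9, Cldn10, Cldn11 and Cldn14, was followed in mouse embryonic stem cell cultures given the factors of hair cell fate. They were taken by symbol, each has 1 entry on the array table, and they are 10 of the 30 claudin genes with an entry of their own among 22180 genes tested. The choice of these 10 was made with earlier results of these data known, so it is not shown to be independent of their values.

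Each claudin crosses the membrane several times and pairs with claudins of the next cell through its extracellular loops. Which claudins a cell makes sets whether its junctions act as a barrier or let selected ions through. In the inner ear, the apical junctions of hair cells and supporting cells keep the potassium-rich endolymph apart from the fluid around the cell bodies, and loss of Cldn9, Cldn11 or Cldn14 causes deafness in mice.

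The cells carried the line iGPA-Myo7a:mVenus, in which doxycycline (Dox) switches on Gfi1, Pou4f3 and Atoh1, 3 transcription factors of hair cell development, and the Myo7a promoter drives the fluorescent protein mVenus. The line was grown as floating embryoid bodies (EBs) in serum, Dox or Dox with retinoic acid (RA) was given from day 4, and cells positive for mVenus were taken by flow cytometry on day 8 or day 12 as induced hair cell-like cells (iHCs), after 4 or 8 days of treatment. The 6 groups were iHCs from Dox and from Dox+RA at each of the 2 days, with 3 biological replicates each, and control EBs of the same days, with 2 each. Control EBs were of the same line, without Dox or RA, and were not sorted, so in every comparison with them the treatment and the sort cannot be told apart. All groups share the 1 stem cell line. The sort kept cells by the activity of a Myo7a promoter, so it fixes Myo7a reporter signal and not the cell type.

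Each sample was hybridised to 1 of 16 Affymetrix Mouse Gene 2.1 ST arrays, and values are log2 signal, on which a difference of 1 is a 2-fold change. Array medians lay between 4.67 and 4.82, and the number of arrays limits the precision. Signals of different genes come from different probes, so a gene's level is compared between groups only. Of 20 hair cell markers, 18 to 19 were higher in the 4 iHC groups than in control EBs (limma, adjusted p under 0.05). Their mean per array ran from 7.64 to 8.71 in iHCs against 4.86 to 5.12 in control EBs. The list and its mean include the induced Gfi1, Pou4f3 and Atoh1, and Myo7a, whose promoter drove the sorted reporter. It is thus no independent check of the cell type. Of 15 neuronal markers, 8 to 12 were higher and 0 to 2 lower in iHCs. Their mean per array was 6.61 to 7.41 in iHCs against 4.97 to 5.25 in control EBs. Of all genes, 15.7% to 22.4% were higher and 18.9% to 22.4% lower in these 4 comparisons. The pluripotency markers averaged 4.7 to 5.31 per array in iHCs and 5.9 to 6.66 in control EBs. Mesenchyme markers fell in 12 of 12 genes in each iHC group, and averaged 5.16 to 5.99 per array there against 8.99 to 9.58 in control EBs. In bulk RNA, fewer cells of a type and less RNA per cell cannot be told apart.

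Against control EBs of the same day, iHCs had more Cldn3, Cldn9, Cldn4 and Cldn10 RNA and less Cldn5 RNA in all 4 treatment and time groups. A gene was called at an adjusted p under 0.05 (limma, Benjamini-Hochberg adjustment across the 22180 genes). In Dox day 8 iHCs 5 claudins were higher and 1 lower, 6 of 10, where 34.6% of all genes were called. In Dox day 12 iHCs 4 were higher and 1 lower, against 40.8% of all genes. With Dox+RA, 5 were higher and 1 lower on day 8 (41.6% of all genes called), and 5 were higher and 2 lower on day 12 (44.8%). Higher calls thus made up 4 to 5 of the 10 claudins, where 15.7%, 19.2%, 19.6% and 22.4% of all genes were higher in the 4 comparisons, in the order given. Of the 20 other claudins measured, 1, 1, 3 and 2 were higher, so the share among the 10 does not stand for the whole family. Lower calls made up 1 to 2, where 18.9%, 21.7%, 22.0% and 22.4% of all genes were lower. With the replicate number as a fixed term in the fit, lower calls became 3, 4, 3 and 4 of the 10, where 20.6%, 23.2%, 23.1% and 23.5% of all genes were lower. The median difference over the 10 claudins was 0.39, 0.18, 0.29 and 0.24 in the same order, and that over all genes 0.02, 0.02, 0.05 and 0.07. The 4 comparisons share their control arrays in pairs, the 2 day 8 arrays for one pair and the 2 day 12 arrays for the other.

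**Figure D1:**
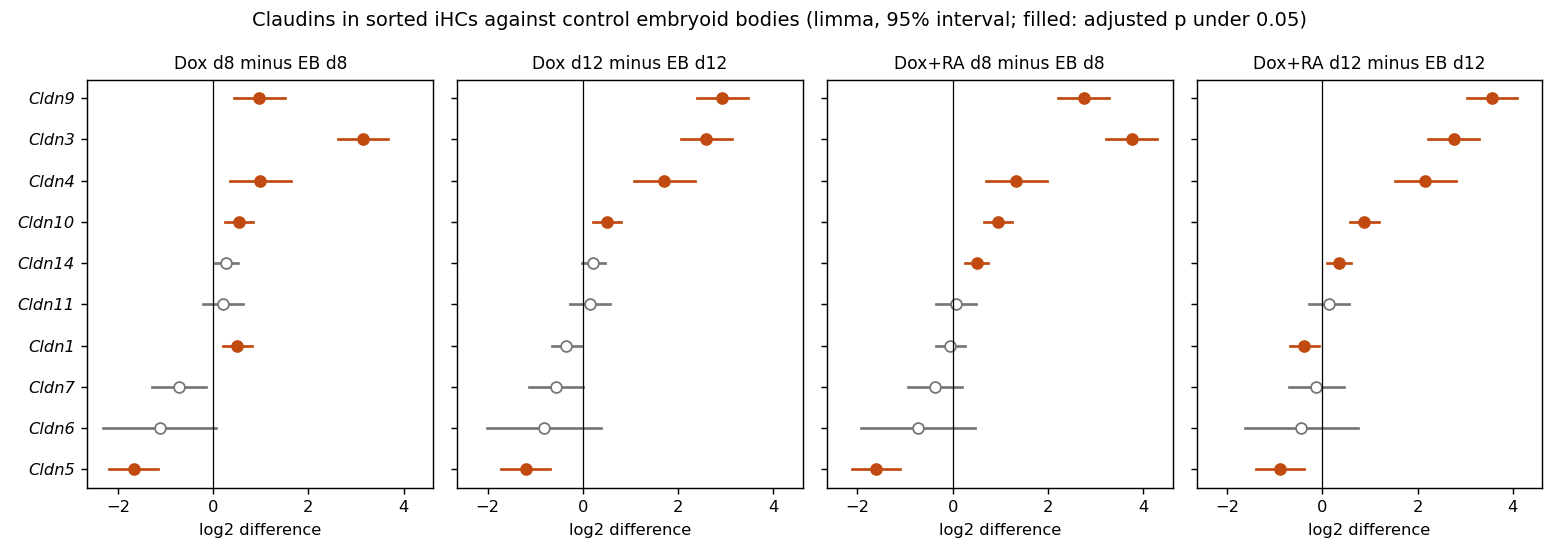
Difference in log2 signal between each iHC group and control EBs of the same day for the 10 claudins, with 95% intervals from limma; filled points have an adjusted p under 0.05. Cldn9, Cldn3, Cldn4 and Cldn10 lie to the right of 0 and Cldn5 to the left in all 4 panels, and the intervals of Cldn6 are the widest.

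Cldn9, a claudin of hair cell and supporting cell junctions, was higher in all 4 iHC groups than in control EBs and also differed among the iHC groups. Its signal was 5.64 and 5.97 on the control EB arrays of day 8 and 5.25 and 5.62 on those of day 12. In Dox iHCs it was 7.25, 6.59 and 6.49 on day 8 and 8.71, 8.28 and 8.11 on day 12. In Dox+RA iHCs it was 8.68, 8.81 and 8.17 on day 8 and 9.09, 9.18 and 8.73 on day 12. No iHC array was as low as a control array, and no Dox day 8 array was as high as any array of the other 3 iHC groups. The order of group means was control day 12, control day 8, Dox day 8, Dox day 12, Dox+RA day 8 and Dox+RA day 12, and neighbours overlapped from Dox day 12 upward.

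Cldn9 rose over control EBs by 0.97 ± 0.25 (log2 difference ± standard error, as for all differences here) in Dox day 8 iHCs, 1.96-fold, with an adjusted p of 0.0063. It was higher by 2.93 ± 0.25 in Dox day 12 iHCs (7.65-fold, adjusted p = 1.8e-07). With Dox+RA it was higher by 2.75 ± 0.25 on day 8 (6.72-fold, adjusted p = 3.7e-07) and by 3.56 ± 0.25 on day 12 (11.8-fold, adjusted p = 2e-08). The last 3 calls held under each of the 25 alternatives tried. The Dox day 8 call was lost without replicate 1 of the day 8 control EBs, where the difference was 0.81 with an adjusted p of 0.075.

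Cldn14, a hair cell claudin whose human gene is also a deafness gene, was dim, and its differences from control EBs were smaller. Its mean over the 16 arrays was 4.98, where the median gene had 5.25. RMA, the method behind the deposited values, compresses changes at low signal, so the sizes for Cldn14 and Cldn9 are not directly comparable. Its signal ran from 4.58 to 4.86 on the 4 control EB arrays and from 4.83 to 5.36 on the 12 iHC arrays. On each day, the iHC arrays of both treatments lay above the control arrays of that day. With Dox+RA it rose by 0.51 ± 0.12 on day 8 (adjusted p = 0.0021) and by 0.35 ± 0.12 on day 12 (adjusted p = 0.022). With Dox alone the differences of 0.27 on day 8 and 0.22 on day 12 were not called (adjusted p = 0.085 and 0.14), although with the replicate number as a block they were called, at 0.31 and 0.26 (adjusted p = 0.025 and 0.049). The day 12 call with Dox+RA was lost without replicate 1 or 2 of the day 12 control EBs or replicate 1 of the Dox+RA day 12 iHCs (differences 0.38, 0.32 and 0.26, adjusted p = 0.064, 0.12 and 0.092).

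Cldn11, the claudin of myelin and of the basal cells of the stria vascularis, showed no called difference in any comparison. Its signal ran from 5.37 to 6.11 over the 16 arrays, and the iHC and control arrays overlapped on both days. The differences from control EBs were 0.20, 0.14, 0.08 and 0.14 with Dox on day 8 and day 12 and with Dox+RA on day 8 and day 12, and their 95% intervals together spanned -0.34 to 0.62. Of the markers of myelinating glia, the other cells known for Cldn11, 5 to 7 of 11 rose in iHCs, where 15.7% to 22.4% of all genes did. Among them was Sox10, a transcription factor of glia and of the otic vesicle, by 2.11, 1.97, 1.61 and 1.18 in the same order. Cnp had means of 5.61 and 5.58 in control EBs, 7.46 and 7.10 in Dox and 7.91 and 7.03 in Dox+RA iHCs (day 8, day 12). Those of Mbp were 4.82 and 4.69, 6.30 and 6.15, and 6.54 and 6.14. Olig2, Mag, Olig1 and Mog differed less. Over the 6 groups, means ran from 3.63 to 3.75 for Olig2 and 3.15 to 3.37 for Mag. They ran from 4.18 to 4.45 for Olig1 and 4.52 to 4.91 for Mog. The mean of the list per array was 5.08 to 5.59 in iHCs and 4.4 to 4.55 in control EBs. What part glial cells had in the Cldn11 values was not tested.

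**Figure D2:**
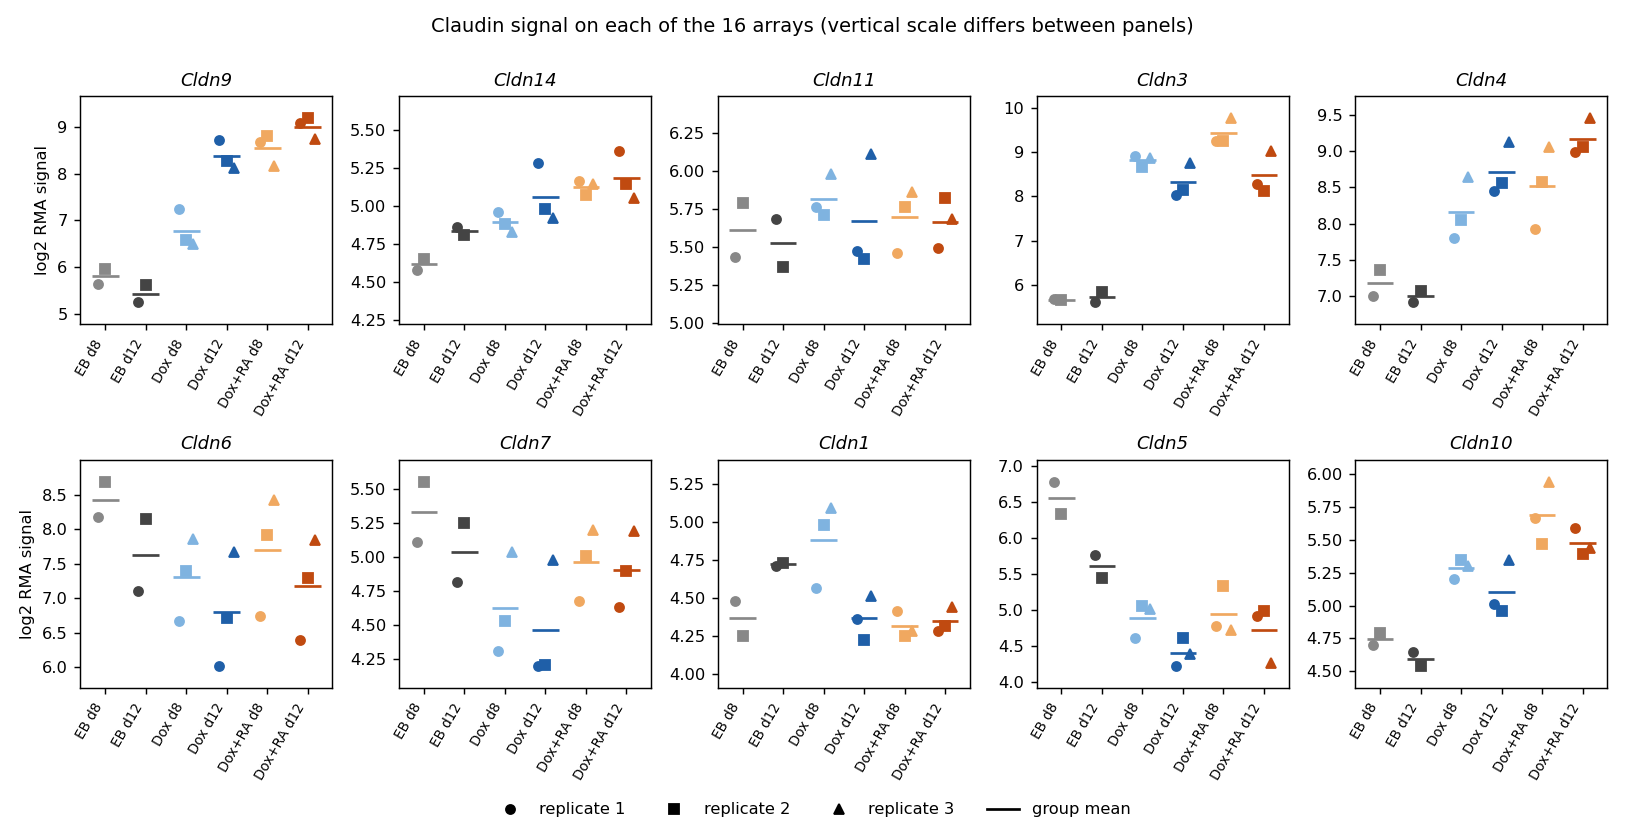
Log2 signal of the 10 claudins on each of the 16 arrays, by group, with the marker shape giving the replicate number and the bar the group mean; the vertical scale differs between panels. Cldn9, Cldn3 and Cldn4 stand higher on every iHC array than on every control EB array, Cldn5 stands lower on every iHC array, and Cldn11 overlaps between iHCs and control EBs of the same day.

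Cldn3, a barrier-forming claudin of many simple epithelia, had the widest range of group means in the family, 3.76. Its signal was 5.68 and 5.65 on the day 8 control arrays and 5.61 and 5.84 on the day 12 ones. In Dox iHCs it was 8.92, 8.66 and 8.86 on day 8 and 8.04, 8.15 and 8.76 on day 12. In Dox+RA iHCs it was 9.26, 9.26 and 9.76 on day 8 and 8.28, 8.13 and 9.03 on day 12. Every iHC array, from 8.04 upward, was above every control array, the highest of which was 5.84. The highest group was Dox+RA day 8, whose arrays lay above all Dox day 8 arrays, although that difference was not called (limma, adjusted p = 0.14).

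The rise of Cldn3 over control EBs was 3.15 ± 0.25 in Dox day 8 iHCs (8.89-fold, adjusted p = 1.5e-07) and 2.59 ± 0.25 in Dox day 12 iHCs (6.03-fold, adjusted p = 7e-07). In Dox+RA iHCs it was 3.76 ± 0.25 on day 8 (13.6-fold, adjusted p = 1.6e-08) and 2.76 ± 0.25 on day 12 (6.76-fold, adjusted p = 3e-07). All 4 calls held under each of the 25 alternatives.

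Cldn4, which often occurs together with Cldn3 in epithelia and was found as a receptor of a Clostridium toxin, also rose in all 4 iHC groups. It was 7.0 and 7.36 on the day 8 control arrays and 6.92 and 7.08 on the day 12 ones. In Dox iHCs it was 7.81, 8.05 and 8.64 on day 8 and 8.45, 8.56 and 9.13 on day 12. In Dox+RA iHCs it was 7.93, 8.57 and 9.06 on day 8 and 8.99, 9.05 and 9.45 on day 12. All iHC arrays were above all control arrays, and the 4 iHC groups overlapped with their neighbours in the order of means. The differences from control EBs were 0.99 ± 0.30 and 1.71 ± 0.30 with Dox on day 8 and day 12 (adjusted p = 0.017 and 0.00024), and 1.34 ± 0.30 and 2.16 ± 0.30 with Dox+RA (adjusted p = 0.0018 and 2.3e-05). The Dox day 8 call was lost without replicate 1 of the day 8 control EBs (0.81, adjusted p = 0.14) and without replicate 3 of the Dox day 8 iHCs (0.75, adjusted p = 0.072).

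Cldn3 and Cldn4 are neighbours on mouse chromosome 5, Cldn4 at chr5:134945123-134946934 and Cldn3 at chr5:134986214-134987476 (GRCm38.p6, RefSeq), with 39279 bases between them. Another claudin of that cluster, Cldn13, lies 29592 bases from Cldn4 and was not called in any of the 4 comparisons with control EBs (differences -0.07, 0.20, -0.02 and 0.25 in the order of groups used above). Over the 16 arrays the signals of Cldn3 and Cldn4 had a Pearson r of 0.79, as a description of arrays that share 4 controls. Because both rose, and Cldn5 fell in the same cells, the 250 bases before the RefSeq start of each are printed here, 5′ to 3′ on the gene's strand, with every E-box, the CANNTG motif that Atoh1 and other basic helix-loop-helix factors recognise, in capitals.
Cldn3, chr5:134985964-134986213, plus strand: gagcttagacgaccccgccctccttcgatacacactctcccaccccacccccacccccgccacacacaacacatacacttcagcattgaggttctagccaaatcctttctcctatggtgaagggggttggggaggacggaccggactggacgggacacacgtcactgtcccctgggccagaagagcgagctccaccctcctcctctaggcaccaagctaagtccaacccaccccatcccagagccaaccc
Cldn4, chr5:134946935-134947184, minus strand: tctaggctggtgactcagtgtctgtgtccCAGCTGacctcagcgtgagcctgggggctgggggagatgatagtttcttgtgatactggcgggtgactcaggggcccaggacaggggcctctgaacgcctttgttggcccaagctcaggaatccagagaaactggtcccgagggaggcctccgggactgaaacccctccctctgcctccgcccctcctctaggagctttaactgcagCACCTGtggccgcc
Cldn5, chr16:18776597-18776846, plus strand: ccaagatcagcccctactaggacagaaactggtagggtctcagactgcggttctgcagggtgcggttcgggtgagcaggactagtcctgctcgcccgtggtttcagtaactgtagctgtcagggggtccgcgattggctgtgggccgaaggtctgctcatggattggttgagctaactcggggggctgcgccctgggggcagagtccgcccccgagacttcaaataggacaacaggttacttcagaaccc
The Cldn4 window holds 2 E-boxes, CAGCTG starting 221 bases and CACCTG starting 14 bases before the start, and 1 match to AGGTCA, the half-site of retinoic acid receptors, in either orientation. The Cldn3 and Cldn5 windows hold neither motif. Windows not printed held these E-box counts: Cldn7 0 and 4, Cldn1 2, Cldn6 1, Cldn10 2 and 2, Cldn11 0 and Cldn14 1, 2 and 2. Over 32851 RefSeq promoter windows of the same length, searched on both strands, 66.2% held CANNTG, 13.0% held CAGCTG and 14.0% held AGGTCA. The motifs were chosen after the values were seen, CAGCTG is one form of CANNTG, and a match is no evidence of binding.

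Cldn6 and Cldn7, claudins of embryonic and adult epithelia, had lower group means in iHCs than in control EBs of the same day, but their arrays were spread widely within groups. Cldn6 was 8.17 and 8.68 on the day 8 control arrays and 7.10 and 8.14 on the day 12 ones. In Dox iHCs it was 6.67, 7.40 and 7.86 on day 8 and 6.02, 6.71 and 7.67 on day 12, and in Dox+RA iHCs 6.75, 7.92 and 8.42 on day 8 and 6.39, 7.29 and 7.85 on day 12. The iHC arrays overlapped the control arrays of the same day in 3 of the 4 groups, all but Dox day 8. The differences of -1.12, -0.82, -0.73 and -0.44 (in the order Dox on day 8 and day 12, then Dox+RA on day 8 and day 12), each with a standard error of 0.56, were not called (adjusted p = 0.14 to 0.55), and the first has a 95% interval from -2.31 to 0.07.

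Cldn7 ranged from 4.82 to 5.55 on control EB arrays and from 4.20 to 5.20 on iHC arrays. Its differences were -0.71, -0.57, -0.37 and -0.13 ± 0.27 in the same order, and none was called (adjusted p = 0.053, 0.11, 0.30 and 0.74), although the first was called under 9 of the 25 alternatives. Cldn6 and Cldn7 had a Pearson r of 0.91 over the 16 arrays, the highest of any pair of the 10 claudins, although they lie on chromosomes 17 and 11.

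Within each of the 4 iHC groups, replicate 3 had the highest and replicate 1 the lowest signal of Cldn6, Cldn7 and Cldn4. Over all 22180 genes, 1.32% showed both in all 4 groups. With the replicate number as a fixed term, a block, Cldn6 and Cldn7 were both called lower than in control EBs in all 4 comparisons. Cldn6 then differed by -1.47, -1.17, -1.08 and -0.80 (adjusted p = 1.7e-06, 1e-05, 2.2e-05 and 0.00033), and Cldn7 by -0.89, -0.75, -0.55 and -0.31 (adjusted p = 3.6e-05, 0.00013, 0.0016 and 0.049). With the block 9, 9, 8 and 9 of the 10 claudins were called in the same order, where 38.4%, 44.0%, 44.5% and 47.4% of all genes were. The labels give the replicate numbers but do not say what equal numbers share. The block assumes that an equal number means an equal shift in iHCs and in control EBs, which have no replicate 3. Deviations of same-number arrays from their group means had r of 0.147 to 0.513 among iHC groups. With a control EB group, r was 0.026 to 0.179.

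Of 26 measured genes of simple and surface epithelium, 13 had replicate 3 highest in all 4 iHC groups, where 5.74% of all genes had, and 6 also had replicate 1 lowest in all 4. Other lists showed it too: replicate 3 was highest in all 4 for 6 of 12 mesenchyme, 5 of 14 endoderm and 10 of 32 tight junction partner genes. Of these, 0, 5 and 1 also had replicate 1 lowest in all 4. Among hair cell and neuronal markers, 0 of 20 and 0 of 15 had replicate 3 highest in all 4. Cdh1, the epithelial cadherin, was 6.84, 7.34 and 8.02 in Dox day 8, 5.90, 6.23 and 7.26 in Dox day 12, 6.33, 7.30 and 7.83 in Dox+RA day 8 and 6.33, 6.97 and 7.0 in Dox+RA day 12 iHCs, by replicate 1, 2 and 3, and 8.03 to 8.42 in control EBs. Epcam, an epithelial adhesion molecule that binds Cldn7, and Spint1, a protease inhibitor of epithelia, also had replicate 3 highest and replicate 1 lowest in all 4 iHC groups. Others did so in part: replicate 3 was highest in 3 of the 4 groups for Ap1m2, an adaptor subunit of epithelial sorting, and in 2 of the 4 for Rab25, an epithelial trafficking GTPase. Of the 26 measured epithelial markers, 2 to 3 rose and 9 to 11 fell in iHCs against control EBs. Of all genes, 15.7% to 22.4% rose and 18.9% to 22.4% fell there. The mean of the 26 per array was 5.5 to 6.2 in iHCs and 6.13 to 6.4 in control EBs. Cldn9 ran the other way, lowest in replicate 3 of all 4 iHC groups, as was Otof, which encodes the hair cell synaptic protein otoferlin. Replicate 3 was lowest in all 4 groups for 7 of 20 hair cell markers and for 5 of 17 endothelial ones, among them Cdh5, Kdr and Tek, where 6.02% of all genes had this order. For the hair cell genes Myo7a and Pou4f3 it was lowest in 2 of the 4 groups. The part of epithelial cells in the replicate differences was not tested.

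**Figure D3:**
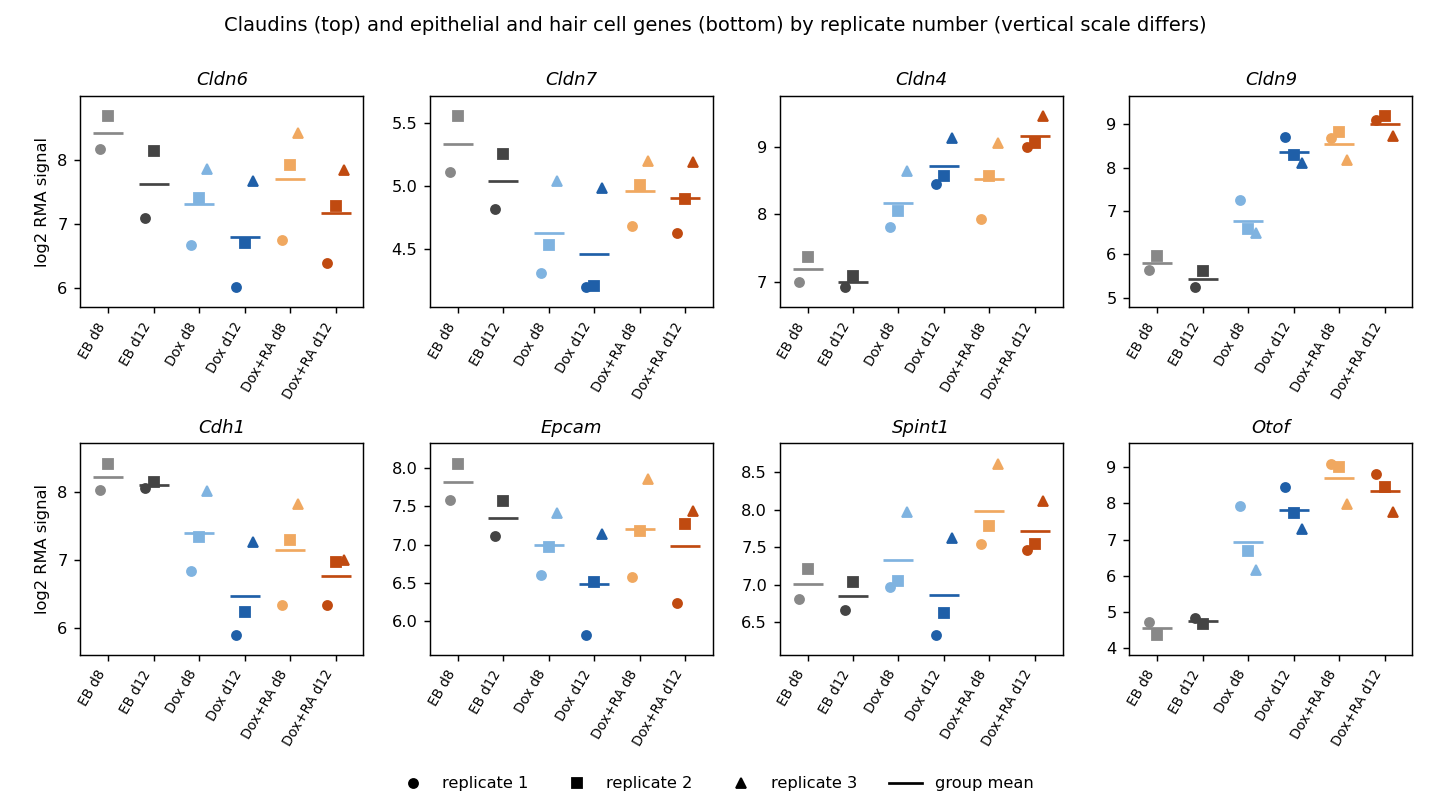
Log2 signal by group for Cldn6, Cldn7, Cldn4 and Cldn9 (top) and for Cdh1, Epcam, Spint1 and Otof (bottom), with the marker shape giving the replicate number and the bar the group mean; the vertical scale differs between panels. In the 4 iHC groups the triangles of replicate 3 are highest for Cldn6, Cldn7, Cldn4, Cdh1, Epcam and Spint1 and lowest for Cldn9 and Otof.

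Cldn1, the claudin of the skin barrier, was dim, at 4.22 to 5.09 on all arrays, and changed in opposite directions. In Dox day 8 iHCs it was 4.56, 4.98 and 5.09 against 4.48 and 4.25 in control EBs, higher by 0.51 ± 0.14 (adjusted p = 0.0094). In Dox+RA day 12 iHCs it was 4.28, 4.31 and 4.44 against 4.71 and 4.73, which was lower (log2 difference -0.38 ± 0.14, adjusted p = 0.04). The arrays did not overlap in either case. The difference in Dox day 12 iHCs, -0.35, was not called (adjusted p = 0.057), and was -0.41 with the replicate block (adjusted p = 0.023). Without replicate 2 of the day 8 control EBs the first call was lost (0.40, adjusted p = 0.12), as it was in a fit on the groups compared alone (adjusted p = 0.057). The second was lost without replicate 1 or 2 of the day 12 control EBs or replicate 1 or 2 of the Dox+RA day 12 iHCs (adjusted p = 0.12, 0.14, 0.10 and 0.09).

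Cldn5, the main claudin of endothelium, was the member that fell in all 4 iHC groups. It was 6.78 and 6.34 on the day 8 control arrays and 5.77 and 5.45 on the day 12 ones. In Dox iHCs it was 4.61, 5.05 and 5.02 on day 8 and 4.22, 4.61 and 4.38 on day 12, and in Dox+RA iHCs 4.78, 5.34 and 4.72 on day 8 and 4.92, 4.98 and 4.26 on day 12. All 12 iHC arrays were below all 4 control arrays, and iHC groups next to each other in the order of means overlapped. The differences from control EBs were -1.67 ± 0.24 and -1.20 ± 0.24 with Dox on day 8 and day 12 (adjusted p = 5.2e-05 and 0.00071), and -1.61 ± 0.24 and -0.89 ± 0.24 with Dox+RA (adjusted p = 5e-05 and 0.0062). The last call was lost without replicate 1 of the day 12 control EBs (-0.74, adjusted p = 0.075). Endothelial markers moved the same way: 13 to 14 of 17 fell and 0 rose in each iHC group, where 18.9% to 22.4% of all genes fell. Among them was Emcn (endomucin), with differences of -3.32, -3.47, -3.48 and -3.08. The mean of the 17 per array was 6.35 to 7.01 in control EBs and 4.72 to 5.81 in iHCs. The part of endothelial cells in the unsorted controls in this difference was not tested.

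Cldn10, an ion-channel claudin of kidney and secretory epithelia, rose in all 4 iHC groups by 1.93-fold at most. Its signal was 4.70 and 4.79 on day 8 and 4.65 and 4.54 on day 12 in control EBs. It was 5.20, 5.35 and 5.30 in Dox day 8, 5.01, 4.96 and 5.35 in Dox day 12, 5.67, 5.47 and 5.94 in Dox+RA day 8 and 5.59, 5.39 and 5.44 in Dox+RA day 12 iHCs. All iHC arrays were above all control arrays. The differences were 0.54, 0.51, 0.95 and 0.88 ± 0.14, with adjusted p of 0.0067, 0.0077, 4.8e-05 and 8.7e-05. The calls with Dox alone were lost without replicate 1 of the day 8 control EBs (0.49, adjusted p = 0.056) and without replicate 2 of the day 12 control EBs (0.46, adjusted p = 0.072), respectively. With replicate 1 of the day 8 control EBs left out, Cldn4, Cldn9 and Cldn10 were all lost on day 8 with Dox, and 3 claudins remained called there. Without replicate 1 of the day 12 control EBs, Cldn1, Cldn5 and Cldn14 were lost on day 12 with Dox+RA, and 4 remained.

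RA changed few claudins when Dox+RA iHCs were set against Dox iHCs. On day 8, Cldn9 was higher with RA by 1.78 ± 0.22 (3.42-fold, adjusted p = 0.00052), and Cldn1 was lower (log2 difference -0.57 ± 0.13, adjusted p = 0.018), 2 of 10 claudins where 4.93% of all genes were called. On day 12, 0 of 10 were called, where 0.924% of all genes were. Cldn9 was the claudin whose day 8 arrays stood farthest apart, 6.49 to 7.25 with Dox and 8.17 to 8.81 with Dox+RA, and this call held under each of the 25 alternatives. On day 12 the Cldn9 difference was 0.63 ± 0.22 (adjusted p = 0.25), and the difference between the RA effects of the 2 days, -1.15 ± 0.31, did not pass (adjusted p = 0.54, where 0.00902% of genes were called), so that the RA effect on Cldn9 is not shown to differ between days. Of the hair cell markers, 9 of 20 were also higher with RA on day 8, among them Otof by 1.77. On day 12, 0 of 20 were higher and 1 lower, Slc17a8, a vesicular glutamate transporter (log2 difference -0.67, adjusted p = 0.037). The Cldn1 call was lost without replicate 2 or 3 of either day 8 iHC group (adjusted p from 0.051 to 0.093).

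Cldn3 and Cldn10 had differences of 0.61 ± 0.22 and 0.41 ± 0.12 with RA on day 8. Neither was called (adjusted p = 0.14 and 0.074). With the replicate block both were (adjusted p = 0.012 and 0.029), as were Cldn4 and Cldn7 on day 12, at 0.45 and 0.44 (adjusted p = 0.046 and 0.037). The median RA difference over the 10 claudins was 0.34 on both days, against 0.02 and 0.03 over all genes.

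From day 8 to day 12, Cldn9 rose and Cldn1 fell in Dox iHCs, 2 of 10 claudins where 8.05% of all genes were called. Cldn9 gained 1.59 ± 0.22 (3.01-fold, adjusted p = 0.0017), a call that held under all 25 alternatives, and the Cldn1 difference was -0.51 ± 0.13 (adjusted p = 0.022). In Dox+RA iHCs Cldn3 was lower on day 12 (log2 difference -0.94 ± 0.22, adjusted p = 0.028), 1 of 10 claudins where 4.38% of all genes were called. In control EBs 0 of 10 were called, where 3.75% of genes were. The Cldn5 difference there, -0.95 ± 0.26 (adjusted p = 0.06), and the Cldn6 difference, -0.80 ± 0.61 (adjusted p = 0.65), were called with the replicate block (adjusted p = 0.038 and 0.0061).

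The block also added time differences in iHCs. In Dox iHCs, Cldn3 was then called lower on day 12 (-0.50, adjusted p = 0.026), Cldn4 higher (0.55, adjusted p = 0.0055) and Cldn6 lower (-0.51, adjusted p = 0.016). In Dox+RA iHCs, Cldn4 was called higher (0.65, adjusted p = 0.0031) and Cldn6 lower (-0.52, adjusted p = 0.02). Without the block these 5 differences had adjusted p of 0.21 to 0.66. The Cldn1 call in Dox iHCs was lost without replicate 2 or 3 of day 8 or replicate 1 or 2 of day 12 (adjusted p from 0.079 to 0.11), and the Cldn3 call in Dox+RA iHCs without replicate 2 or 3 of day 8 or replicate 1 or 2 of day 12 (adjusted p from 0.063 to 0.14).

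**Figure D4:**
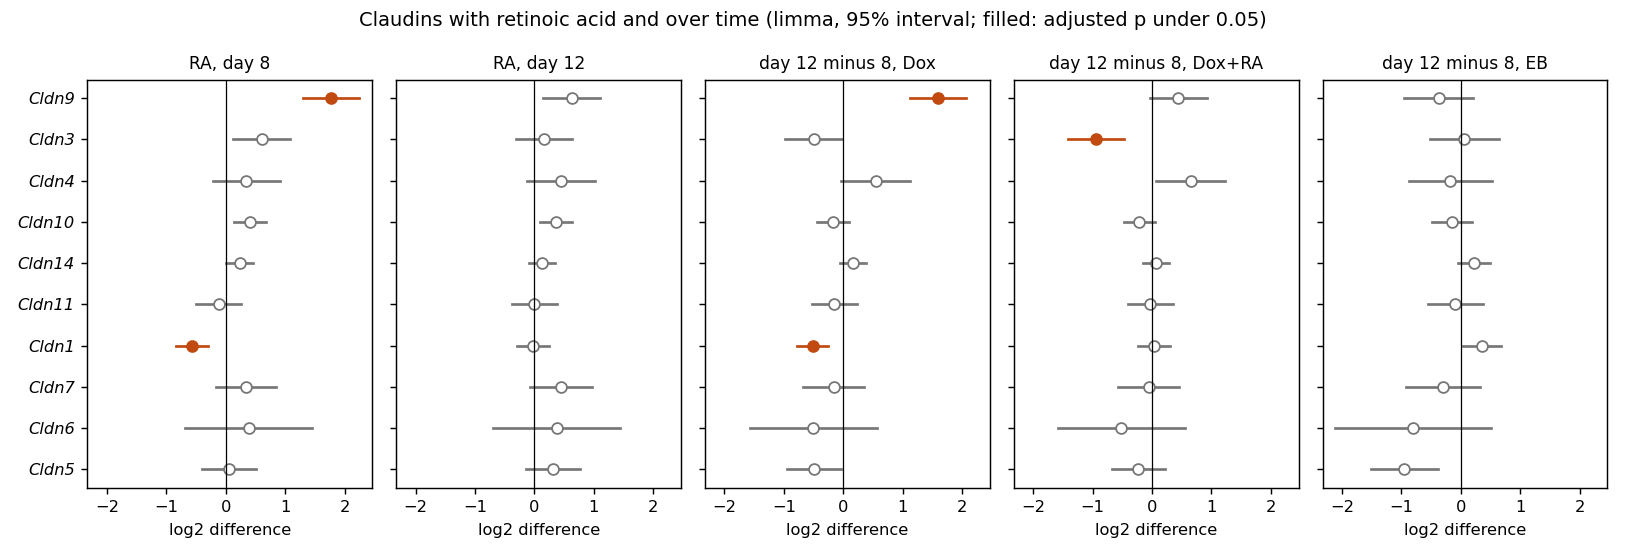
Difference in log2 signal for the 10 claudins, Dox+RA minus Dox on day 8 and on day 12, and day 12 minus day 8 in Dox iHCs, Dox+RA iHCs and control EBs, with 95% intervals from limma; filled points have an adjusted p under 0.05. Cldn9 stands apart to the right with RA on day 8 (1.78) and over time with Dox (1.59), and Cldn3 is lower over time with Dox+RA (-0.94).

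The change over time in Dox iHCs was compared with that in control EBs. For Cldn9 it was larger by 1.96 ± 0.35 (adjusted p = 0.0071), with a difference of -0.37 between the days in control EBs (adjusted p = 0.63). For Cldn1 it was -0.87 ± 0.20 (adjusted p = 0.029). These were 2 of 10 claudins, where 2.84% of all genes were called. The Cldn9 call was lost without replicate 1 of the day 12 or replicate 2 of the day 8 control EBs (1.78 and 1.8, adjusted p = 0.05 and 0.051). The Cldn1 call was lost without any one of 7 arrays, replicate 2 of the day 8 and replicates 1 and 2 of the day 12 control EBs, replicates 2 and 3 of Dox day 8 and replicates 1 and 2 of Dox day 12 iHCs (adjusted p from 0.06 to 0.15). For Dox+RA iHCs against control EBs 0 of 10 were called, where 2.62% of genes were. With the replicate block the Cldn4 differences, 0.72 for Dox and 0.82 for Dox+RA, were called (adjusted p = 0.028 and 0.016), and so was Cldn3 for Dox+RA, at -1.01 (adjusted p = 0.016).

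For the 4 claudins with the widest range of group means, the genes with the most similar signal over the 16 arrays were found by Pearson r. Those nearest to Cldn3 were Lrrn1 (0.984), Nol4 (0.983) and Nova1 (0.982), the last a neuronal splicing factor. Those nearest to Cldn9 were Unc79 (0.987), Hps4 (0.982) and Kcnh6 (0.981), a sodium leak channel subunit, a lysosome-related organelle protein and a potassium channel. Zfp612 (0.981), Kiss1r (0.973) and Abcc8 (0.955) were nearest to Cldn4. S1pr1 (0.962), Plvap (0.959) and Bcl6b (0.953), genes of endothelial cells, were nearest to Cldn5. The group means of Kcnh6, 3.83 and 3.74 in control EBs, 5.90 and 7.36 in Dox and 7.57 and 8.10 in Dox+RA iHCs on day 8 and day 12, have the same order as those of Cldn9. These values describe arrays that share group and replicate structure, and they carry no test.

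Cldn9 and Cldn6 are also neighbours, at chr17:23682584-23684026 and chr17:23679348-23682446 with 137 bases between them. Their signals went separate ways, with r of -0.44 over the 16 arrays. Cldn9 rose in all 4 iHC groups while the Cldn6 differences were below 0 in all 4 and, with the replicate block, were called. Among the other pairs, Cldn3 with Cldn10 (0.89), Cldn9 with Cldn14 (0.86) and Cldn9 with Cldn4 (0.83) had the highest r after Cldn6 with Cldn7. Whether probes of one claudin also bind RNA of another was not tested.

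Of the 20 other claudins measured, the calls against control EBs were 1 higher and 1 lower in Dox day 8, 1 and 2 in Dox day 12, 3 and 1 in Dox+RA day 8 and 2 and 2 in Dox+RA day 12 iHCs, where 34.6%, 40.8%, 41.6% and 44.8% of all genes were called. Cldn12, a claudin that lacks the usual PDZ-binding end, was the member that rose in all 4, by 0.55, 1.03, 0.66 and 0.87 ± 0.12 (adjusted p = 0.0019, 5.1e-06, 0.00034 and 2.3e-05). Its signal was 6.60 to 6.87 on control arrays and 7.20 to 7.81 on iHC arrays, without overlap. Cldn2, a cation pore of leaky epithelia, was lower in all 4, with differences of -0.39, -0.49, -0.37 and -0.37. Cldn8 was lower on day 12 with Dox (-0.50) and Dox+RA (-0.35), and Cldn23 was higher by 0.93 in Dox+RA day 8 iHCs. Cldn2, Cldn8 and Cldn23 were dim, with group means of 3.75 to 4.28, 2.96 to 3.47 and 4.02 to 4.95. The median gene had a mean of 5.25 over the arrays, and the lower quartile was 3.96. With RA, 0 of the 20 were called on either day.

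The deafness genes of tight junctions hold Cldn9, Cldn11 and Cldn14 together with Marveld2 (tricellulin) and Ildr1 (angulin-2), which seal the points where 3 cells meet. Marveld2 differed from control EBs by 0.23, 0.27, 0.43 and 0.55 ± 0.24 and Ildr1 by 0.04, 0.32, 0.27 and 0.50 ± 0.28, in the order of groups used above, and none was called (adjusted p from 0.074 to 0.93). So of the 5 measured genes of this list, Cldn9 was called with Dox, and Cldn9 and Cldn14 with Dox+RA.

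Among the cytoplasmic and membrane partners of claudins, lower calls outnumbered higher ones. Of 32 measured, 6 were higher and 9 lower in Dox day 8, 4 and 11 in Dox day 12, 5 and 12 in Dox+RA day 8 and 5 and 11 in Dox+RA day 12 iHCs. Of all genes, 15.7%, 19.2%, 19.6% and 22.4% were higher and 18.9%, 21.7%, 22.0% and 22.4% lower in the same order. The largest rise was that of Jam2, a junctional adhesion molecule, by 2.33, 3.0, 2.10 and 3.10 ± 0.20 (adjusted p at most 7.3e-07). Lsr (angulin-1) rose by 0.64, 0.92, 0.85 and 1.01 ± 0.18. Amot (angiomotin) was lower, with differences of -2.12, -2.54, -2.93 and -2.99, as was Cgnl1 (paracingulin), a scaffold that joins junctions to actin, with -1.55, -1.72, -1.97 and -1.58. Ocln (occludin) differed by -0.45, -0.51, -0.44 and -0.44 ± 0.28, with no call. Tjp1 (ZO-1), the scaffold that binds the tails of claudins, was called in Dox day 12 iHCs alone of the 4, higher by 0.33 ± 0.10 (adjusted p = 0.014).

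**Figure D5:**
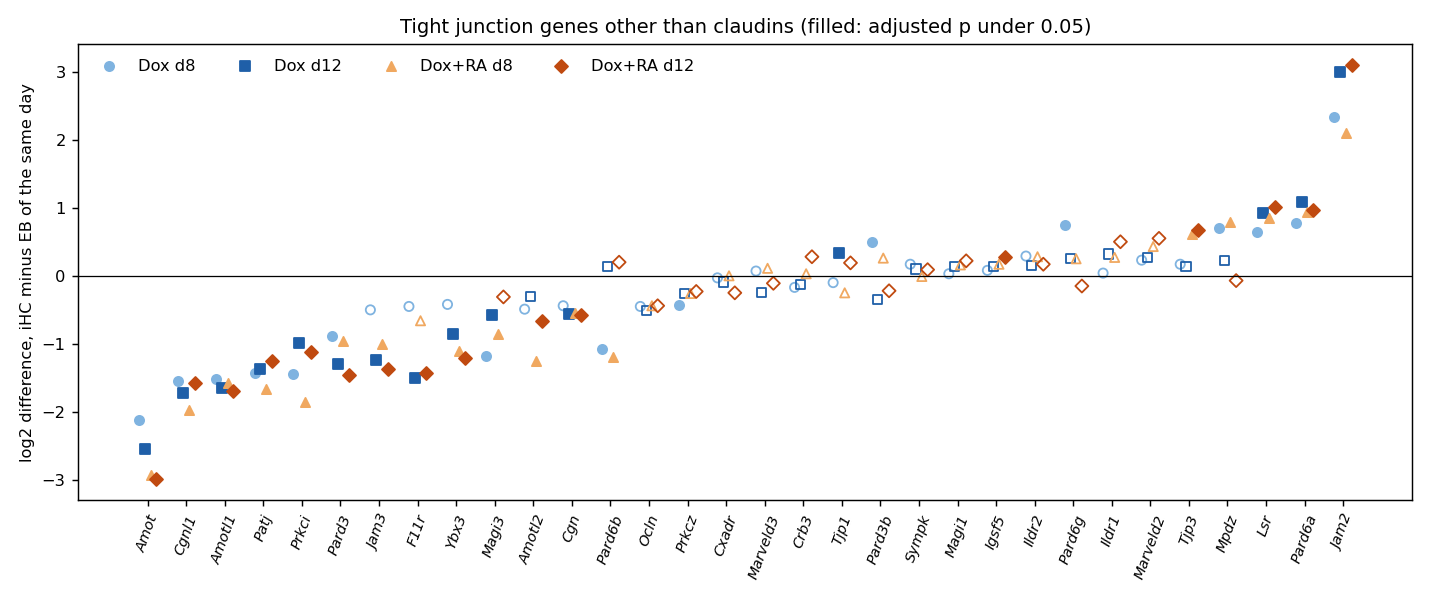
Difference in log2 signal between each iHC group and control EBs of the same day for 32 tight junction genes other than claudins, ordered from the lowest to the highest; filled markers have an adjusted p under 0.05. Jam2 lies between 2.10 and 3.10 and Amot between -2.99 and -2.12.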

How the data were processed

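The deposited values are log2 RMA signal; the submitters' processing notes name Affymetrix Expression Console for this step, without a version. RMA corrects background, brings arrays to a common distribution, summarises the probes of an entry and compresses changes at low signal. They were used as deposited. Of 33708 entries, 23521 carry 1 symbol in the platform annotation, 1814 several and 8373 none. For a gene with several entries the one with the highest mean was used, which left 22180 genes. Samples were grouped by their titles.

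The fit over all genes used limma 3.58.1 under R 4.3.3, with 6 group means, lmFit and eBayes at their defaults, and 12 contrasts, 9 differences and 3 interactions. Each adjusted p is limma's, by Benjamini-Hochberg over all genes of a contrast, and the fit was tested on simulated data. P-values measure the spread between the samples the labels call biological replicates. Tables and figures used Python 3.11.15, pandas 2.3.3 and matplotlib 3.10.9. Promoters are the 250 bases before a RefSeq start (GRCm38.p6). Of the 10 claudins, 9 matched, all but Cldn9.

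The members, lists and tests were chosen with earlier results of these data known. Named were all 10 claudins, the 5 measured deafness genes of tight junctions, up to 4 called genes of each other list with the largest difference, and the 3 genes most alike to each of 4 claudins. Lsr, Ocln, Tjp1, Sox10, Epcam and Spint1 were added after their values were seen. Also named were Cldn13, Rab25, Ap1m2, Myo7a, Cnp, Mbp, Olig1, Olig2, Mag and Mog. List genes without an entry of their own were not analysed here.

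Same-numbered arrays of different iHC groups deviated together from their group means (18 pairs, r 0.147 to 0.513, median 0.291; 36 pairs of different number, -0.415 to 0.201). With control EBs, 18 same-number pairs had r of 0.026 to 0.179. The fit without the block is the main one, and values with the replicate block stand beside results they change. The 25 alternatives, of 10 kinds, include leaving out each of the 16 arrays.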

Additional observations from a re-analysis of the deposited data

Results flagged for a closer look

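For 2 claudins the change from day 8 to day 12 in Dox iHCs differed from the change in control EBs, by a test of that difference. Cldn9 differed by 1.96 on the log2 scale (adjusted p = 0.0071), rising from a mean of 6.78 to 8.37 in Dox iHCs and going from 5.81 to 5.43 in control EBs. Cldn1 differed by -0.87 (adjusted p = 0.029), falling from 4.88 to 4.37 in Dox iHCs and going from 4.37 to 4.72 in control EBs, with all of its signal low on the array.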

How the results depend on the processing

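Of 120 claudin differences (10 genes, 12 contrasts), 31 were called and 18 of these held under all 25 alternatives, among them Cldn3 against control EBs in all 4 iHC groups and Cldn9 in 3; 64 were never called, and 32 of those changed sign, with no difference above 0.38 in size. With the replicate block the number of claudins called became 9 in Dox day 12 iHCs against control EBs, 4 and 2 with RA on day 8 and day 12, 5, 3 and 2 over time in Dox iHCs, Dox+RA iHCs and control EBs, and 2 for the time change of Dox+RA iHCs against that of control EBs; it changed no call beyond those printed with the results. With dim genes left out, Cldn1 and Cldn14 were not tested, and 1 claudin each was called with RA on day 8, over time with Dox, and for the time change with Dox against control EBs. A fit on the groups compared alone called 1 claudin in each of those 3, 0 over time with Dox+RA and 1 over time in control EBs. Centring the arrays ended the Cldn1 call in Dox+RA day 12 iHCs (-0.32, adjusted p = 0.055).

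Genes called over the whole array, in the order RA day 8, RA day 12, Dox over time, Dox+RA over time, the difference of RA effects, and the time change of Dox and of Dox+RA against control EBs, were 1094, 205, 1785, 972, 2, 630 and 582. They were 2277, 635, 3023, 2299, 24, 1021 and 942 with array weights and 2436, 722, 3139, 2010, 15, 1430 and 1150 with the block, which also gave 1255 in control EBs over time (831 without it). A fit on the groups compared gave 29 for RA day 12, 420 for Dox over time, 553 for control EBs over time, 1 for the difference of RA effects and 415 for the time change of Dox; a trended robust prior and testing all entries each gave 1 for the difference of RA effects. The cause of these shifts was not tested.

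Leaving out 1 array, the claudins called against control EBs ranged from 3 to 7 in Dox day 8, 4 to 7 in Dox day 12, 6 to 6 in Dox+RA day 8 and 4 to 7 in Dox+RA day 12 iHCs; from 1 to 3 and 0 to 0 with RA on day 8 and day 12; from 1 to 3, 0 to 1 and 0 to 1 over time in Dox iHCs, Dox+RA iHCs and control EBs; and 0 to 0, 0 to 2 and 0 to 1 for the 3 interactions. Genes called ranged from 5614 to 8062, 7210 to 9125, 7135 to 9481 and 7761 to 10196 against control EBs, 333 to 1559 and 55 to 393 with RA, 644 to 2598, 297 to 1297 and 317 to 951 over time, and 1 to 15, 266 to 1068 and 268 to 718 for the interactions. The uncalled differences in Dox+RA day 12 iHCs turned sign for Cldn7 without replicate 1 of that group (0.01) or replicate 2 of the day 12 control EBs (0.09), and for Cldn6 without the latter (0.08); their ranges without 1 array were -0.34 to 0.09 and -0.96 to 0.08. Where a control group was left with 1 array, that array is assumed to vary like the other groups.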
